A study of Mus musculus with 42 samples.

Results

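The 9 genes *Gad1*, *Gad2*, *Dlx1*, *Dlx2*, *Dlx5*, *Dlx6*, *Lhx6*, *Nkx2-1* and *Sp8* specify or mark the inhibitory interneurons of the forebrain. They were taken by name, and all probe sets annotated to one of them alone were read: 12 of the 45037 probe sets tested, and 9 of the 18193 genes measured. Expression was followed in *Fmr1*KO and WT mouse embryos in 4 systems, namely neuronal cultures of the hippocampus and of the cortex (hippocampal culture and cortical culture) and the embryonic tissue of the same regions (primary hippocampus and primary cortex). Primary hippocampus was measured in 6 KO and 6 WT arrays, and each of the other systems in 5 KO and 5 WT arrays, 42 in all. Both genotypes were untreated, on a congenic C57BL/6 background, and the embryos were 17 to 18 days post conception. The cultures came from such embryos and had matured for 14 days in vitro. Each sample pooled littermates, as its label states, and carries a mouse ID. The ID is read here as the litter, and 10 of the 12 IDs appear in all 4 systems. The labels do not say whether the systems of an ID came from the same embryos. The paper describes cultures and tissue samples as portions of the same dissected tissue, without naming IDs. The KO mice lack *Fmr1*, the fragile X gene, in all cells, and *Fmr1* was lower in KO by 0.90 to 0.99 on the log2 scale, with no overlap of KO and WT arrays in 4 of 4 systems.

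Interneurons of the cortex and hippocampus are born outside these regions, in the ganglionic eminences of the ventral forebrain, and migrate in before birth. *Dlx1* and *Dlx2*, homeodomain factors of the eminences, turn on *Dlx5* and *Dlx6* in the same cells. *Nkx2-1* sets the identity of the medial eminence, and *Lhx6*, its target, stays on in the interneurons born there, which include the somatostatin and parvalbumin types. *Sp8*, a zinc finger factor, is used by interneurons of the lateral and caudal eminences and also by dorsal progenitors. *Gad1* and *Gad2* encode the glutamate decarboxylases that make GABA, the transmitter of these neurons.

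*Gad2*, *Lhx6*, *Gad1* and the neighbours *Dlx1* and *Dlx2* lie on chromosome 2, *Dlx6* and *Dlx5* are neighbours on chromosome 6, and *Nkx2-1* and *Sp8* lie on chromosome 12. In GRCm38.p6 the genes span chr2:70561303-70602014 (*Gad1*), chr2:22621015-22693877 (*Gad2*), chr2:71528113-71533981 (*Dlx1*), chr2:71543408-71546754 (*Dlx2*), chr6:6877801-6882068 (*Dlx5*), chr6:6863334-6867970 (*Dlx6*), chr2:36081950-36105992 (*Lhx6*), chr12:56531935-56536908 (*Nkx2-1*) and chr12:118846288-118852578 (*Sp8*). RefSeq promoter windows of GRCm38.p6, which run from 250 bases before a transcript start to 50 after it, matched 7 of the 9 genes with 11 windows. *Dlx5* and *Dlx6* had no entry. All 10 windows of the 6 genes *Gad1*, *Gad2*, *Dlx1*, *Dlx2*, *Lhx6* and *Sp8* are shown, 3 each for *Lhx6* and *Sp8* and 1 for each of the others, so that the pair that was higher in culture, *Gad1* and *Gad2*, can be set beside those that were lower. Each window is on the strand of its gene, which is the plus strand for *Gad1* (chr2:70561879-70562178), *Gad2* (chr2:22622077-22622376), *Dlx1* (chr2:71529195-71529494) and *Sp8* (chr12:118846079-118846378, chr12:118846983-118847282 and chr12:118847309-118847608), and the minus strand for *Dlx2* (chr2:71546705-71547004) and *Lhx6* (chr2:36105359-36105658, chr2:36104484-36104783 and chr2:36104011-36104310), in the order printed. Capitals mark the homeodomain core TAATT, or AATTA for the other strand, and the GC box GGGCGG, or CCGCCC for the other strand.
Gad1: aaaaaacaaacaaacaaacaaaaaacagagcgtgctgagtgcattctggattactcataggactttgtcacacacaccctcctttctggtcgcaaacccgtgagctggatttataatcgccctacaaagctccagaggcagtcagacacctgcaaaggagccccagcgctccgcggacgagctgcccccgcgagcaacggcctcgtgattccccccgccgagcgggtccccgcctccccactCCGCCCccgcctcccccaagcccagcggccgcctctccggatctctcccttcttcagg
Gad2: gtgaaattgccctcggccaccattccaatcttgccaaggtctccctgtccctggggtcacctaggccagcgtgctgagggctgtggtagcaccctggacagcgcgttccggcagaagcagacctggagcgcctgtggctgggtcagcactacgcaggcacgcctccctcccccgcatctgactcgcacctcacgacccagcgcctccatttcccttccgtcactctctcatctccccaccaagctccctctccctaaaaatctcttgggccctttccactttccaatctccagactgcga
Dlx1: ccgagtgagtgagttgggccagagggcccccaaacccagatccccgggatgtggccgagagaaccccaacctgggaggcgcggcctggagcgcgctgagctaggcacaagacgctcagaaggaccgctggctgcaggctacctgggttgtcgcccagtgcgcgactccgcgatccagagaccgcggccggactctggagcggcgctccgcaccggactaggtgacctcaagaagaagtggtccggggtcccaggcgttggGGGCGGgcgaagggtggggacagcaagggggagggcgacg
Dlx2: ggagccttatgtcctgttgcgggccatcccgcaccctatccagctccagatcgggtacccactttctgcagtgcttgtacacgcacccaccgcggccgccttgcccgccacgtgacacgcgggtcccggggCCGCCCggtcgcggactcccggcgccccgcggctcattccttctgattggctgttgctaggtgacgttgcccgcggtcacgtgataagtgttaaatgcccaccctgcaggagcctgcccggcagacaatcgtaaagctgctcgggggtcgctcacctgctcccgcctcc
Lhx6, window 1: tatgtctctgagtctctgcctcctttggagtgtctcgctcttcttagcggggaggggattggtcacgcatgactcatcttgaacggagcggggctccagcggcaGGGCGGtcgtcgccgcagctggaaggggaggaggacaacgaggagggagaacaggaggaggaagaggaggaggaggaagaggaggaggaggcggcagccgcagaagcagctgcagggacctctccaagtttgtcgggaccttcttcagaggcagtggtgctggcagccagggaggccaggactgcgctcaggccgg
Lhx6, window 2: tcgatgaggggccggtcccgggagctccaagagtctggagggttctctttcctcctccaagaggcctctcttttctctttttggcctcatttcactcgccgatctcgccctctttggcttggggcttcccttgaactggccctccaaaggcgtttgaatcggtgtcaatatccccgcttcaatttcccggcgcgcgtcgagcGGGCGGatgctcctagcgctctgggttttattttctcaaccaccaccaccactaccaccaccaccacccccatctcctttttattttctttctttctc
Lhx6, window 3: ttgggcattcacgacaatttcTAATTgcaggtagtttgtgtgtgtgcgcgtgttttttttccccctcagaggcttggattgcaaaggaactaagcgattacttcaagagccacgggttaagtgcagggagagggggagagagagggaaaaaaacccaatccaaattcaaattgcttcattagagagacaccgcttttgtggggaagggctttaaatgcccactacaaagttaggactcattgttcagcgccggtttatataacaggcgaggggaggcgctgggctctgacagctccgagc
Sp8, window 1: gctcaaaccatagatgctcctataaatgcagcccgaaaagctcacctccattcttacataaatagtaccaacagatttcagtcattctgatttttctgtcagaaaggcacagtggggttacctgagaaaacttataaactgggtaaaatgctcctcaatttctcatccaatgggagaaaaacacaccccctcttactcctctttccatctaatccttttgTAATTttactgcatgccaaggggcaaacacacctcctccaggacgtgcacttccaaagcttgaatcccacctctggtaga
Sp8, window 2: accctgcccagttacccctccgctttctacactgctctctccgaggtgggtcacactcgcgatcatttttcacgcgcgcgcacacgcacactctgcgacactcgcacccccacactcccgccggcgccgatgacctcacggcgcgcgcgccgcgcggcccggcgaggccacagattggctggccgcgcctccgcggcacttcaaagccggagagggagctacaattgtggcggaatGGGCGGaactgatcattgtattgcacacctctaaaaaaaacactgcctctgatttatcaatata
Sp8, window 3: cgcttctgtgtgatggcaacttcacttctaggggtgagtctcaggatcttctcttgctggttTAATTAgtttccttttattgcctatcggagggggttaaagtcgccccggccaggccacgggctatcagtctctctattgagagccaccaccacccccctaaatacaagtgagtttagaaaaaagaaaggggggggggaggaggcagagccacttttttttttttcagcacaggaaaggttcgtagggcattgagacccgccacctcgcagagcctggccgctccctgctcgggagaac

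The homeodomain core, the letters that Dlx and Lhx proteins share with most homeodomain factors, was found in 3 of the 11 windows and in 27% of all 32851 windows. Those 3 windows belonged to 2 of the 7 genes, *Lhx6* and *Sp8*, namely window 3 of *Lhx6* and windows 1 and 3 of *Sp8*, and the TAATT and AATTA matches in window 3 of *Sp8* overlap. The GC box, which Sp-type zinc finger factors bind, was found in 7 of the 11 windows, from 6 of the 7 genes, and in 35.7% of all windows. The median GC content was 60% over the 11 windows and 52.7% over all windows.

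The deposited values are log2 signals normalized across the arrays. A level of 5.16, the 95th percentile of 123 probe sets for olfactory receptors and other genes assumed to be silent in the brain, was taken as background. Of all genes, 12631 had a mean above it in at least 1 of the 8 groups of system and genotype, and array medians lay between 5.40 and 5.56. *Gad1* and *Gad2* were above background on 42 of 42 arrays, as was *Lhx6*, and *Dlx1* was above it on 41. *Dlx5* was above background on 36 arrays, *Dlx2* on 35 and *Sp8* on 26, and the arrays that were not came from the cultures. *Dlx6* passed it on 2 arrays and *Nkx2-1*, the factor of medial eminence progenitors, on none, with values between 3.98 and 4.54, so no fold is given for either. *Gad1*, *Gad2* and *Lhx6* each had 2 probe sets, of which the one with the higher mean is reported. The other *Lhx6* probe set was below background on every array. The other *Gad1* and *Gad2* probe sets are given beside the main ones for culture against tissue and for genotype in the cultures.

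**Figure D1:**
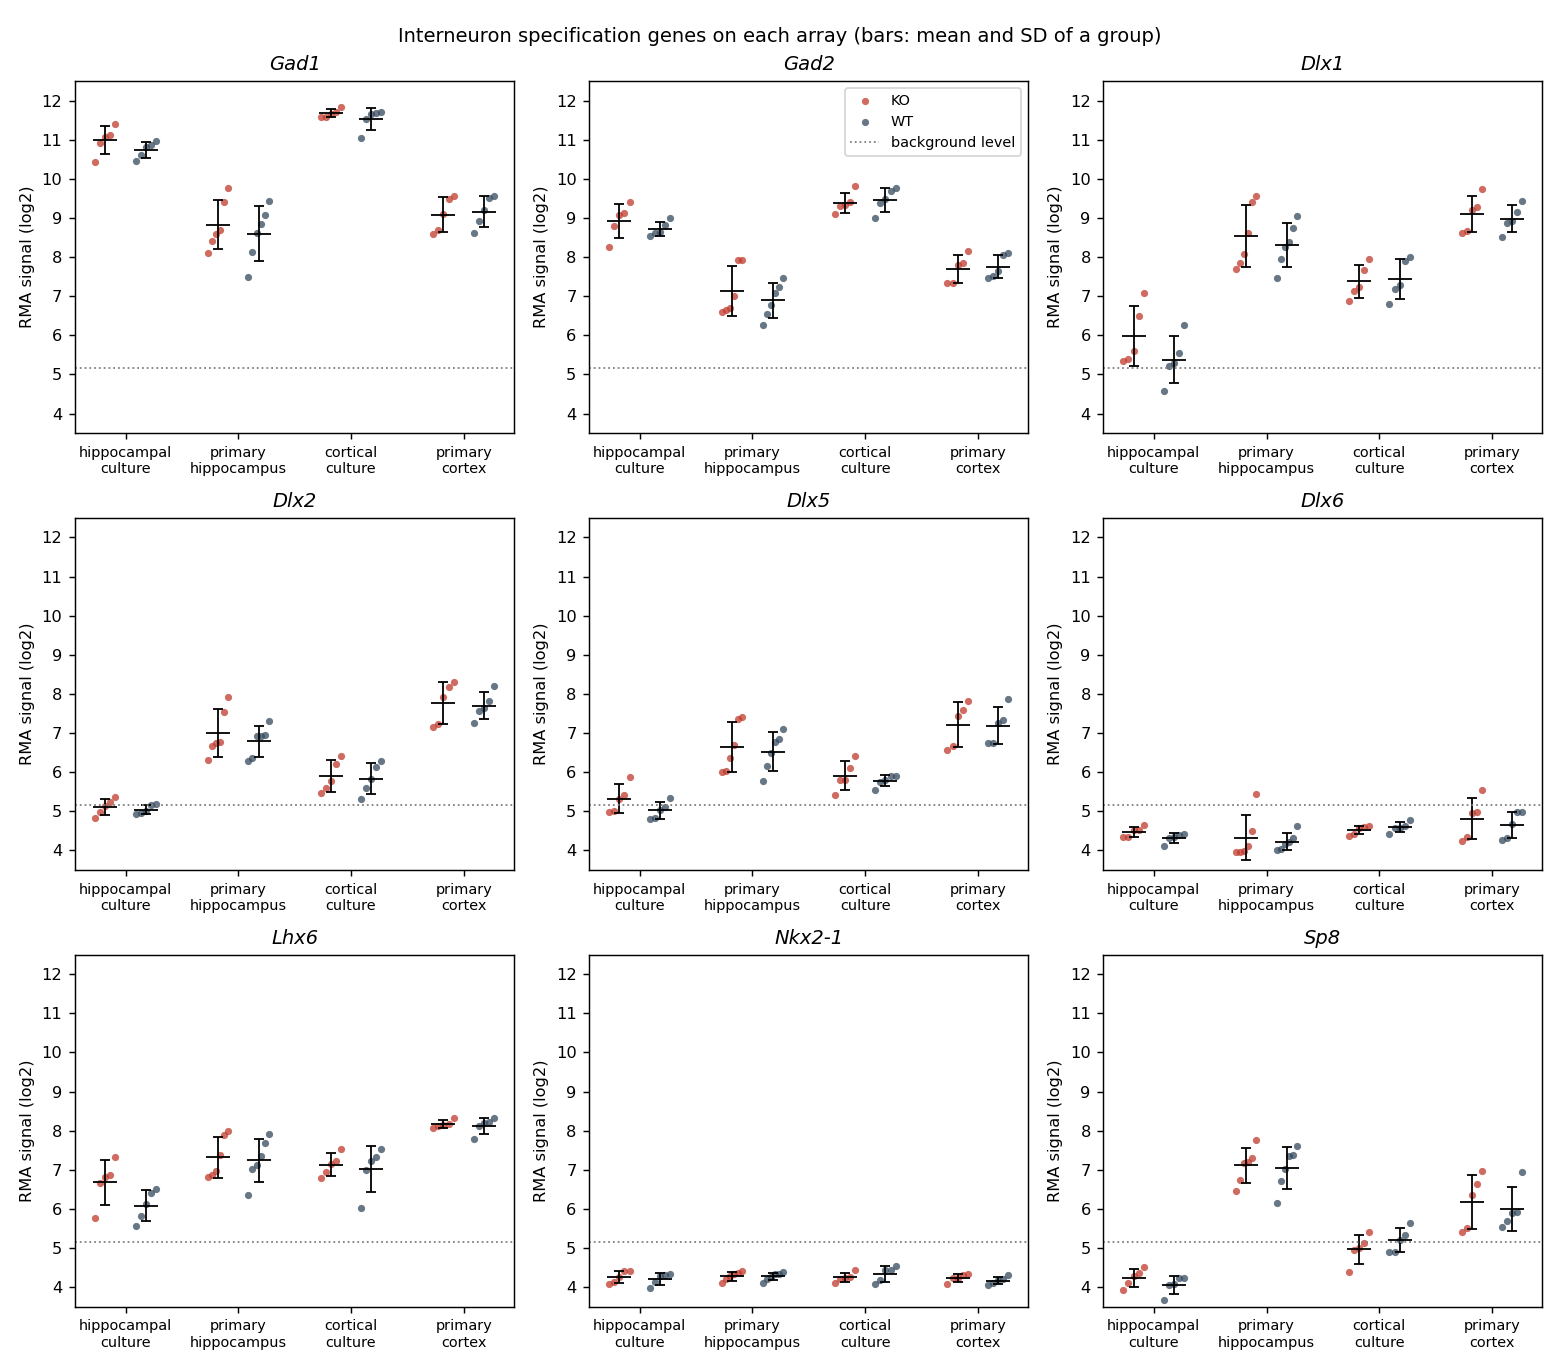
Log2 signal (y axis) of the 9 genes on each of the 42 arrays, by system and genotype (x axis, KO left of WT), with the mean and SD of each group as bars and the background level of 5.16 as a dotted line. *Gad1* and *Gad2* are higher in the cultures, *Dlx1*, *Dlx2*, *Dlx5* and *Sp8* are higher in tissue, and KO and WT points overlap in each panel.

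The first comparison, of cultures with the tissue they came from, addressed how neurons matured in vitro differ from the embryonic brain. *Gad1* and *Gad2* were higher in culture, *Dlx1*, *Dlx2*, *Dlx5*, *Lhx6* and *Sp8* were lower, and *Dlx6* and *Nkx2-1*, at background, did not pass. In the hippocampus 2 of the 9 genes were higher and 5 lower in culture at an adjusted p under 0.05 (77.8%), and in the cortex the same counts were found. Across all genes 72.1% passed in the hippocampus, 35.9% higher and 36.2% lower, and 71.2% passed in the cortex, 35.3% higher and 35.9% lower, so the share of members that passed is near the background and their sizes and directions are given as a description of these genes. Each comparison was fitted with limma across all probe sets, with p-values adjusted by the Benjamini-Hochberg method.

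*Gad1* (probe set 1416561_at) had a median of 10.89 in hippocampal culture (10.42 to 11.39, n = 10), against 8.64 in primary hippocampus (7.48 to 9.78, n = 12). In cortical culture its median was 11.67 (11.04 to 11.85), against 9.15 in primary cortex (8.60 to 9.56, n = 10 each). The lowest culture array was therefore above the highest tissue array in both regions. The difference was 2.15 (SE 0.18, limma adjusted p = 2.96e-13) on the log2 scale in the hippocampus, 4.44-fold, and 2.48 (SE 0.19, adjusted p = 2.14e-14) in the cortex, 5.57-fold. The other *Gad1* probe set gave differences of 2.30 and 2.73 in the hippocampus and the cortex. It follows that culture exceeded tissue in 10 of 10 litters in each region.

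*Gad2* (1429589_at), which makes the form of the enzyme found at synaptic terminals, behaved in the same direction. Its median was 8.81 in hippocampal culture (8.26 to 9.40), against 6.89 in primary hippocampus (6.25 to 7.93). In cortical culture it was 9.39 (9.0 to 9.80), against 7.72 in primary cortex (7.34 to 8.17). Culture and tissue did not overlap in either region, so all 10 litters were higher in culture. The log2 differences were 1.81 (SE 0.16, limma adjusted p = 1.25e-12) in the hippocampus and 1.70 (SE 0.17, adjusted p = 2.60e-11) in the cortex, or 3.51-fold and 3.24-fold, and 2.22 and 2.24 by the other probe set.

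*Dlx1* (1449470_at) moved the opposite way. Its median was 5.47 in hippocampal culture (4.59 to 7.08), against 8.32 in primary hippocampus (7.47 to 9.55). In cortical culture its median was 7.27 (6.80 to 8.01), against 9.05 in primary cortex (8.51 to 9.73). Every culture array was below every tissue array of its region. The log2 difference was −2.74 (SE 0.24, limma adjusted p = 5.39e-13) in the hippocampus, 6.68-fold lower, and −1.63 (SE 0.25, adjusted p = 3.74e-07) in the cortex, 3.10-fold lower.

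*Dlx2* (1448877_at), which overlaps *Dlx1* in function, had a median of 5.07 in hippocampal culture (4.83 to 5.37), against 6.84 in primary hippocampus (6.27 to 7.93). Only 3 of the 10 hippocampal culture arrays were above background, so the difference is a bound: at least 3.26-fold lower in culture (measured log2 difference −1.82, SE 0.17, limma adjusted p = 2.79e-12). Such bounds were computed with values below background raised to it. In cortical culture *Dlx2* had a median of 5.81 (5.30 to 6.42), against 7.73 in primary cortex (7.16 to 8.32), a log2 difference of −1.87 (SE 0.18, adjusted p = 4.65e-12), 3.66-fold lower. Neither region showed overlap of culture and tissue.

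*Dlx5* (1449863_a_at), which acts downstream of *Dlx1* and *Dlx2*, had a median of 5.07 in hippocampal culture (4.80 to 5.89; 4 of 10 arrays above background), against 6.60 in primary hippocampus (5.77 to 7.41). It was at least 2.45-fold lower in hippocampal culture (measured log2 difference −1.41, SE 0.18, limma adjusted p = 9.83e-09), with a small overlap of the groups. In cortical culture its median was 5.80 (5.42 to 6.41), against 7.29 in primary cortex (6.57 to 7.86). There the groups did not overlap, and the log2 difference was −1.36 (SE 0.19, adjusted p = 6.17e-08), 2.56-fold lower.

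*Lhx6* (1425094_a_at) had the smallest of the called decreases in the hippocampus. Its median was 6.46 in hippocampal culture (5.55 to 7.33), against 7.24 in primary hippocampus (6.35 to 8.00), and the groups overlapped. The log2 difference was −0.90 (SE 0.18, limma adjusted p = 4.55e-05), 1.86-fold lower, and 7 of 10 litters were lower in culture. In cortical culture its median was 7.19 (6.02 to 7.53), against 8.16 in primary cortex (7.78 to 8.34), with no overlap. That difference was −1.07 (SE 0.19, adjusted p = 5.86e-06), 2.10-fold lower, and without overlap it necessarily held in 10 of 10 litters.

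*Sp8* (1440519_at) was below background on 10 of 10 hippocampal culture arrays, with a median of 4.16 (3.66 to 4.52), against 7.19 in primary hippocampus (6.15 to 7.76). Its median in cortical culture was 5.05 (4.39 to 5.64; 4 of 10 arrays above background), against 5.91 in primary cortex (5.42 to 6.98). *Sp8* was therefore at least 3.77-fold lower in hippocampal culture (measured log2 difference −2.93, SE 0.19, limma adjusted p = 4.09e-17) and at least 1.78-fold lower in cortical culture (measured −1.0, SE 0.19, adjusted p = 2.03e-05). The hippocampal groups were well apart, whereas the cortical groups overlapped. *Dlx1*, *Dlx2*, *Dlx5* and *Sp8* were lower in culture in 10 of 10 litters in both regions. Where the groups of a region did not overlap, that count was fixed by the absence of overlap.

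**Figure D2:**
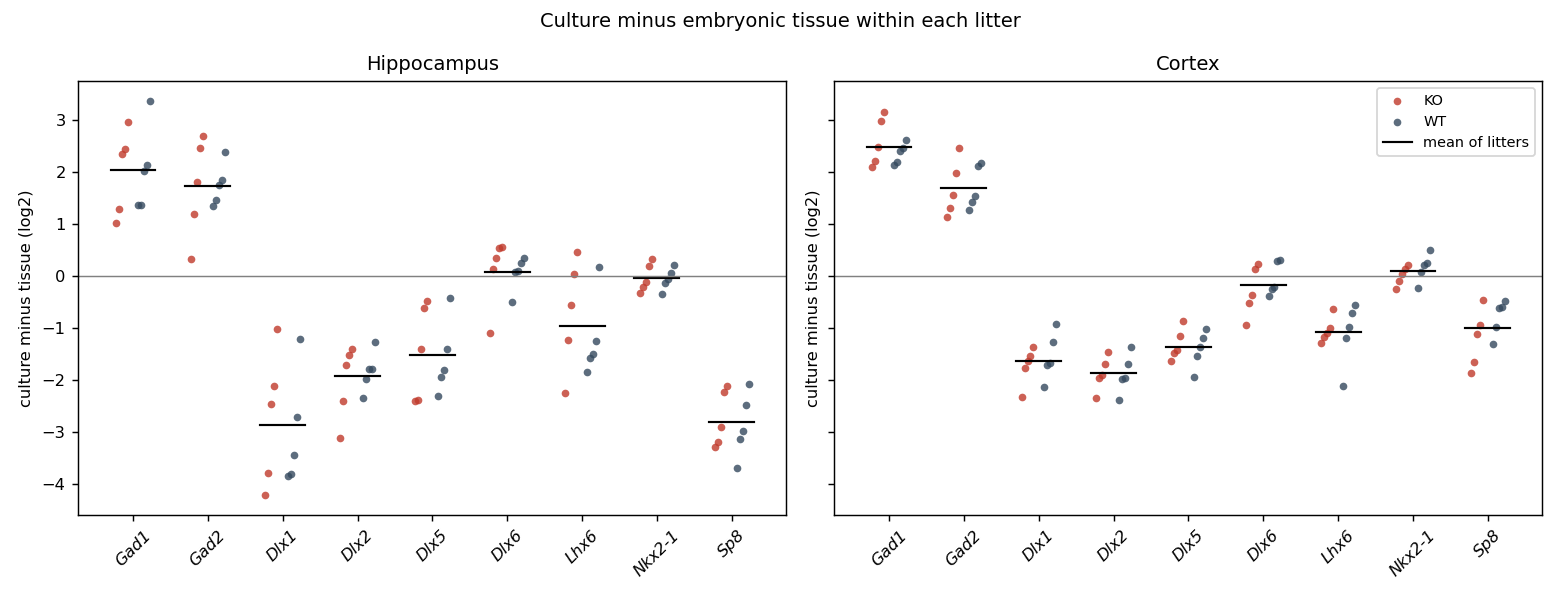
Culture minus tissue (log2, y axis) of the 9 genes (x axis) within each of the 10 litters measured in all systems, in the hippocampus and in the cortex; points are KO and WT litters and lines are means over the litters. *Gad1* and *Gad2* lie above 0 in each litter, *Dlx1*, *Dlx2*, *Dlx5* and *Sp8* lie below 0 in each litter, and 3 litters of *Lhx6* in the hippocampus lie above 0.

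The culture-to-tissue difference itself depended on the region for 2 of the 9 genes (22.2%, beside 32% of all genes), both with a lower value in the hippocampus (17.1% of all genes). For *Sp8* it was lower in the hippocampus than in the cortex by 1.93 on the log2 scale (estimate −1.93, SE 0.27, limma adjusted p = 5.66e-07). With values below background raised to it the estimate was −1.08 and the adjusted p was 0.00054. For *Dlx1* the estimate was −1.11 (SE 0.35, adjusted p = 0.0141). That call was lost without litter 2037 (−0.96, adjusted p = 0.0543) and without litter NT (−0.93, adjusted p = 0.0615). The other 7 genes did not pass this test.

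Bulk RNA of this kind does not tell fewer interneurons from less of a transcript in each one. Other marker lists moved between culture and tissue too, and their part in the values above was not tested. Genes of pallial excitatory neurons were lower in culture for 10 of 11 and higher for 1 in both regions (median −1.58 in the hippocampus and −2.05 in the cortex). Microglia genes were lower for 7 of 8 (medians −2.11 and −1.42), and endothelial genes for 6 of 7 (medians −1.53 and −1.22), in the hippocampus and the cortex. Cell division genes were lower in culture for 9 of 9 in both regions (median log2 difference −2.97 in the hippocampus and −1.39 in the cortex). Mature neuron genes were higher for 8 of 8 in the hippocampus (median 2.21) and for 7 of 8 in the cortex (median 1.17), and astrocyte genes were higher for 6 of 8 (median 1.04) and 8 of 8 (median 1.86). Oligodendrocyte lineage genes split in the hippocampus (2 higher and 3 lower of 7, median −0.15) and were higher for 6 and lower for 1 of 7 in the cortex (median 0.99). Over all genes the medians were 0.02 and 0.01, and 72.1% and 71.2% passed.

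The other lists of interneuron genes are given by their counts at the same threshold. By it 72.1% of all genes passed in the hippocampus, 35.9% higher and 36.2% lower in culture. In the cortex 71.2% passed, 35.3% higher and 35.9% lower, so the counts are a description of these lists. Of 14 further factors of migrating and postmitotic interneurons, 2 were higher and 12 lower in hippocampal culture than in primary hippocampus (median −1.04), and 2 were higher and 10 lower in the cortex (median −0.75). The decreases above background that were largest in the hippocampus were those of *Cxcr4*, the chemokine receptor that guides interneuron migration (−3.13), *Prox1*, a factor of caudal eminence interneurons that dentate granule neurons also use (−3.0), *Zeb2* (−1.84) and *Satb1* (−1.36). In the cortex *Zeb2* (−2.82), *Cxcr4* (−1.83) and *Ackr3*, a second chemokine receptor (−1.43), were lower, and *Nxph1* was higher (1.28). Of 6 further genes for GABA metabolism and transport, 5 were higher and 1 lower in hippocampal culture (median 1.27), and 5 were higher and none lower in cortical culture (median 1.70). They included *Slc32a1*, the vesicular GABA transporter, with differences of 1.42 in the hippocampus and 2.12 in the cortex, and *Abat*, which breaks GABA down, with 1.37 and 2.62. Of 16 subtype markers, 10 were higher and 2 lower in hippocampal culture (median 0.70), and 8 were higher and 4 lower in cortical culture (median 0.32). *Sst*, the somatostatin gene, was higher by 1.53 in the hippocampus and 1.49 in the cortex, and *Reln* was lower by 1.56 in the hippocampus (estimate −1.56). The earlier factors of subpallial progenitors did not move as one group: of the 7 measured, 2 were higher and 1 lower in hippocampal culture (median 0.05), and 4 were higher and 1 lower in cortical culture (median 0.43). *Olig1*, which the oligodendrocyte lineage also uses, was higher by 3.15 in the hippocampus and by 4.04 in the cortex, *Olig2* was higher in the cortex (3.11), and *Vax1* was lower in both regions (−0.62 and −0.63).

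The second comparison set the hippocampus against the cortex. In tissue, 7 of the 9 genes passed (77.8%, beside 36.4% of all genes), 1 higher and 6 lower in the hippocampus, where 19.7% of all genes were higher and 16.7% lower. *Dlx2* was lower in primary hippocampus by 0.84 (estimate −0.84, SE 0.17, limma adjusted p = 0.000132) and *Lhx6* by 0.87 (−0.87, SE 0.18, adjusted p = 0.000246), each in 10 of 10 litters. *Gad2* (−0.71, adjusted p = 0.000686) and *Dlx5* (−0.62, adjusted p = 0.00792) were lower in 9 of 10 litters each. *Dlx6* also passed, but its group means were below background. The difference of *Gad1* was −0.41 (SE 0.18, adjusted p = 0.0868), which did not pass. That of *Dlx1* was −0.62 (adjusted p = 0.0465) and is a borderline call, since the adjusted p was 0.121 with the litter as a block and lay between 0.0369 and 0.0938 when single litters were left out. The call was lost without any one of litters 2221, 2236, 2643, 2644, 3104, 3569, 4236 and 4237.

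*Sp8* was the 1 member that was higher in the hippocampus in tissue. It was 1.98-fold higher in primary hippocampus (log2 difference 0.99, SE 0.19, limma adjusted p = 5.00e-05), in 8 of 10 litters. In the cultures the order was turned, with *Sp8* lower in hippocampal than in cortical culture (−0.94, adjusted p = 0.000256), but both culture means were below background. With values raised to background that difference was −0.10 (adjusted p = 0.737), so no fold is given.

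The cultures differed between regions too. There 7 of the 9 genes passed (77.8%, beside 28.2% of all genes, 14.7% higher and 13.5% lower), and all 7 were lower in hippocampal culture. *Dlx1* had the largest difference, −1.72 (limma adjusted p = 1.14e-06), lower in 10 of 10 litters. *Gad1* was lower by 0.74 (−0.74, adjusted p = 0.00341) in 10 litters and *Gad2* by 0.60 (−0.60, adjusted p = 0.00778) in 9. *Lhx6* was lower by 0.69 (−0.69, adjusted p = 0.00573) in 8 litters. *Dlx2* was at least 1.59-fold lower (measured −0.78, adjusted p = 0.000757) and *Dlx5* at least 1.47-fold lower (measured −0.67, adjusted p = 0.00731) in hippocampal culture.

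Put in order, *Gad1* and *Gad2* were highest in cortical culture (11.60 ± 0.22 and 9.42 ± 0.27; SD, n = 10), followed by hippocampal culture (10.86 ± 0.30 and 8.83 ± 0.33), primary cortex (9.13 ± 0.40 and 7.73 ± 0.31) and primary hippocampus (8.71 ± 0.65 and 7.01 ± 0.54; n = 12). The step of *Gad1* between the tissues did not pass. *Dlx1*, *Dlx2* and *Dlx5* had the order primary cortex, primary hippocampus, cortical culture and hippocampal culture, and each step passed the test, that of *Dlx1* between the tissues without the litter block only. For *Dlx1* the means were 9.04 ± 0.39, 8.42 ± 0.67, 7.41 ± 0.44 and 5.68 ± 0.73 in that order. *Lhx6* was highest in primary cortex (8.15 ± 0.16), and its levels in cortical culture (7.08 ± 0.44) and primary hippocampus (7.28 ± 0.51) differed by −0.20, which did not pass (limma adjusted p = 0.326).

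Marker lists of other cells also moved with the region, and whether the genes of a list mark only those cells was not tested. Of 12 genes of striatal projection neurons, which lie beside the cortex and arise in the ganglionic eminences, none was higher and 8 were lower in primary hippocampus than in primary cortex (median −0.49), with *Drd1* at −2.64, *Foxp2* at −2.48, *Meis2* at −1.66 and *Ppp1r1b* at −1.19. The mean of this list per array was 5.88 to 6.40 in KO and 5.84 to 6.07 in WT primary hippocampus, and 6.51 to 7.41 in KO and 6.53 to 7.16 in WT primary cortex. In culture 1 was higher and 6 lower (median −0.20), and over all genes the median was −0.01 in tissue and in culture. Of all genes 36.4% passed between the tissues and 28.2% between the cultures. The 6 hippocampal identity genes were all higher in primary hippocampus than in primary cortex (median 2.11), and 5 of 6 were higher in hippocampal than in cortical culture (median 1.70). Between the cultures, cell division genes were lower in the hippocampal one for 9 of 9 (median −1.07) and oligodendrocyte lineage genes for 6 of 7 (median −0.90), while mature neuron genes were higher for 4 of 8 (median 0.36) and pallial excitatory genes were higher for 6 and lower for 2 of 11 (median 0.51). Between the tissues, microglia genes were higher in the hippocampus for 7 of 8 (median 0.72), astrocyte genes were higher for 5 and lower for 1 of 8 (median 0.93), and mature neuron genes were lower for 6 of 8 (median −0.41). The part of these cells and of neighbouring tissue in the levels of the interneuron genes was not tested.

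The third comparison, KO against WT, asked whether loss of *Fmr1* altered these genes. At the unadjusted p under 0.05 of the study's methods, 1 of the 9 genes passed in hippocampal culture, where it was higher in KO (11.1%, beside 9.54% of all genes, and 6.87% higher in KO), and none passed in cortical culture (10.2% of all genes), primary hippocampus (1.54%) or primary cortex (1.66%). The members' share in hippocampal culture is near that of all genes, and by adjusted p none of the 9 passed (0.0055% of all genes). By the exact permutation test over arrays none of the 9 passed in any system, although the smallest p it could give was 0.00794 for 5 against 5 arrays and 0.00216 for 6 against 6.

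The gene that passed was *Lhx6*. In KO hippocampal cultures its level was 6.66 in litter 2037, 7.33 in 2038, 6.81 in 2221, 5.76 in 2620 and 6.87 in 4236. In WT hippocampal cultures it was 6.12 in litter 2236, 6.52 in 2643, 5.83 in 2644, 5.55 in 3569 and 6.41 in NT. KO litters 2037, 2038, 2221 and 4236 were above all 5 WT litters, and KO litter 2620 lay below 4 of them. The means were 6.68 ± 0.57 in KO and 6.08 ± 0.40 in WT (SD, n = 5 each), a log2 difference of 0.60 (SE 0.27, limma p = 0.0322, adjusted p = 0.517), and the two-sided exact permutation p was 0.0952. Leaving out 1 litter gave 0.44 to 0.83, and the call was lost without KO litter 2038 (0.44), 2221 (0.57) or 4236 (0.56) and without WT litter 2644 (0.54) or 3569 (0.47). With array weights the difference was 0.45, which did not pass.

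*Dlx1* had a difference of the same size in hippocampal culture, 0.60 (SE 0.35, limma adjusted p = 0.655, exact permutation p = 0.175), which did not pass. Its KO levels were 5.61 in litter 2037, 7.08 in 2038, 6.50 in 2221, 5.34 in 2620 and 5.39 in 4236. Its WT levels were 5.55 in litter 2236, 6.27 in 2643, 5.29 in 2644, 4.59 in 3569 and 5.21 in NT. Only KO litters 2038 and 2221 exceeded the WT range. It passed without KO litter 2620 (0.76) or WT litter 2643 (0.82).

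The enzymes of GABA synthesis did not separate the genotypes. In KO hippocampal cultures *Gad1* was 11.06 in litter 2037, 11.39 in 2038, 10.92 in 2221, 10.42 in 2620 and 11.12 in 4236, against 10.62 in litter 2236, 10.86 in 2643, 10.98 in 2644, 10.46 in 3569 and 10.80 in NT of the WT cultures. The WT values fell within the KO range, and the log2 difference was 0.24 (SE 0.27, limma adjusted p = 0.854). *Gad2* averaged 8.93 ± 0.43 in KO and 8.72 ± 0.18 in WT hippocampal culture (SD, n = 5 each). In cortical culture *Gad1* averaged 11.68 ± 0.10 in KO and 11.53 ± 0.28 in WT, and *Gad2* 9.39 ± 0.26 in KO and 9.46 ± 0.30 in WT. By the other probe sets KO minus WT there was −0.35 (SE 0.27) for *Gad1* and −0.46 (SE 0.32) for *Gad2*. In hippocampal culture the other probe sets gave 0.26 for *Gad1* and 0.16 for *Gad2*. None of these differences passed. In primary hippocampus *Gad1* averaged 8.83 ± 0.63 in KO and 8.60 ± 0.70 in WT (n = 6 each), and in primary cortex 9.09 ± 0.44 in KO and 9.16 ± 0.40 in WT.

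In tissue the levels of the interneuron factors overlapped between KO and WT too. *Lhx6* in KO primary cortex was 8.34 in litter 2037, 8.16 in 2038, 8.11 in 2221, 8.07 in 2620 and 8.16 in 4236, against 8.12 in litter 2236, 7.78 in 2643, 8.19 in 2644, 8.23 in 3569 and 8.32 in NT of WT primary cortex. These values span less than those of any other member above background in that tissue. *Sp8* in KO primary cortex was 6.36 in litter 2037, 5.42 in 2038, 6.63 in 2221, 6.98 in 2620 and 5.50 in 4236, against 5.88 in litter 2236, 5.53 in 2643, 6.95 in 2644, 5.70 in 3569 and 5.93 in NT of WT primary cortex. Each genotype thus held litters at the low and at the high end of the range. In primary hippocampus *Sp8* averaged 7.11 ± 0.45 in KO and 7.04 ± 0.54 in WT (SD, n = 6 each).

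For the rest, KO minus WT in hippocampal culture lay between 0.05 and 0.60 over the 9 genes. In cortical culture the range was −0.22 to 0.15, in primary hippocampus 0.01 to 0.24, and in primary cortex −0.07 to 0.18. The 95% confidence intervals of the 9 genes reached from −0.44 to 1.32 in hippocampal culture, −0.78 to 0.70 in cortical culture, −0.43 to 0.88 in primary hippocampus and −0.62 to 0.84 in primary cortex. They rest on 1 spread per probe set, estimated over all 8 groups, and so do not show the spread within a system. For *Lhx6* the group SDs ran from 0.10 in KO primary cortex to 0.59 in WT cortical culture. KO and WT arrays overlapped for each gene in each system. A test of whether the KO-to-WT difference in culture was unlike that in tissue passed for 0 of 9 genes (limma, unadjusted p under 0.05, lowest adjusted p = 0.844, beside 7.42% of all genes). Averaged over the 4 systems with the litter as a random block, the differences lay between 0.01 and 0.22, and 0 of 9 passed (limma, unadjusted p under 0.05, lowest adjusted p = 0.95, beside 5.79% of all genes).

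**Figure D3:**
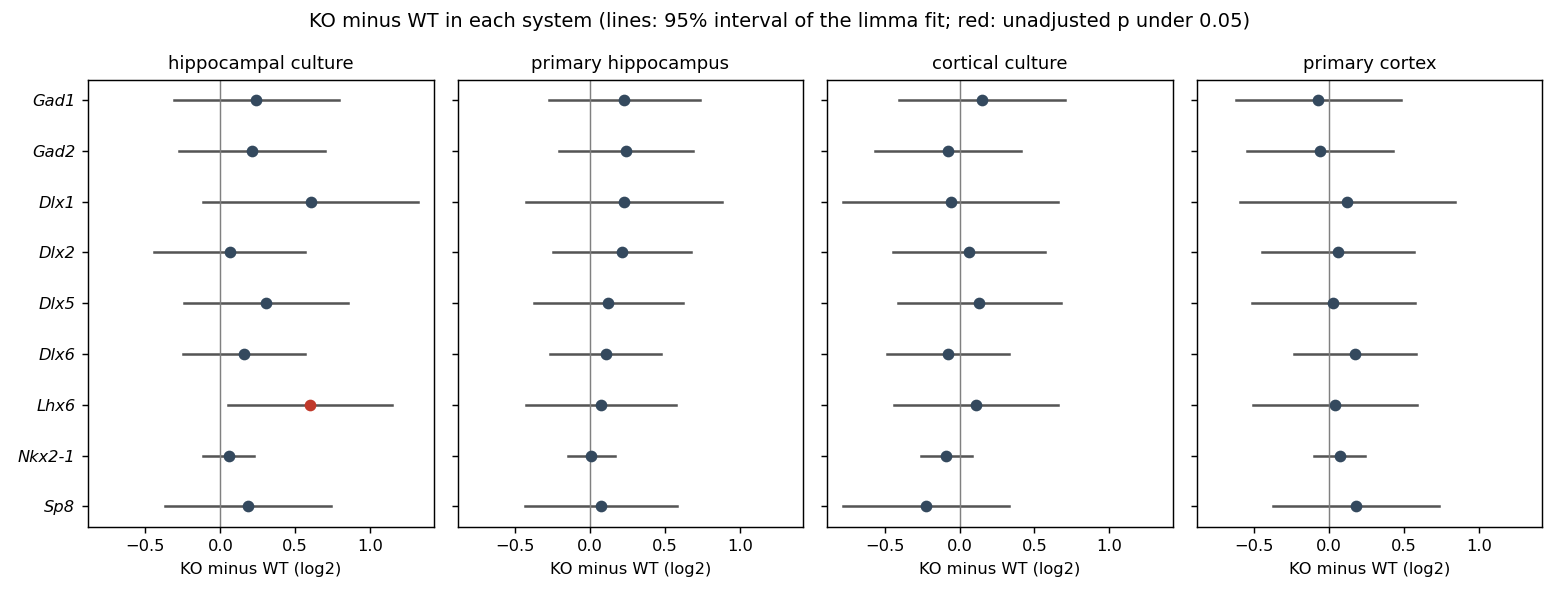
Log2 difference of KO minus WT (x axis) for the 9 genes in each of the 4 systems; points are estimates and lines are 95% confidence intervals, with the point in red where the unadjusted p was under 0.05. Only the interval of *Lhx6* in hippocampal culture, with an estimate of 0.60, leaves out 0.

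Genotype calls in the lists around these genes are given beside the shares of all genes. At an unadjusted limma p under 0.05, 9.54% of all genes passed in hippocampal culture and 10.2% in cortical culture. In primary hippocampus and primary cortex the shares were 1.54% and 1.66%. Of the 14 migration and postmitotic factors, 0 passed in either culture or in primary cortex by limma at an unadjusted p under 0.05, and 1 was higher in KO primary hippocampus, *Lhx8*, a factor of ventral cholinergic neurons, whose mean was below background. Of the 16 subtype markers, *Chodl*, which marks a rare somatostatin type, was higher in KO hippocampal culture (0.85, SE 0.35, limma adjusted p = 0.474). In cortical culture 3 were lower in KO, of which *Lamp5*, a marker of neurogliaform cells, had a mean above background (−0.70, SE 0.28, limma adjusted p = 0.432). Of the 6 genes of GABA metabolism and transport, *Aldh5a1* was higher in KO hippocampal culture (0.17, SE 0.078, limma adjusted p = 0.526), and *Slc6a13*, whose mean was below background, was lower in KO primary hippocampus. Lists of other cells held calls too, such as 3 of 11 pallial excitatory genes, higher in KO hippocampal culture. In KO cortical culture 2 of 9 cell division genes and 2 of 7 oligodendrocyte lineage genes were higher. In KO primary hippocampus 2 of 7 choroid plexus genes were lower. Astrocyte and mature neuron genes had no call in any system.

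Among litters of one genotype 6 of the interneuron genes varied together over the 22 tissue arrays taken as one set, though *Lhx6* did so less evenly. For the 6 genes other than *Sp8* that were above background in tissue (*Gad1*, *Gad2*, *Dlx1*, *Dlx2*, *Dlx5* and *Lhx6*), the deviations from the group means of the 22 tissue arrays had pairwise correlations of 0.71 to 0.98 (15 pairs, median 0.91). *Sp8*, also above background on the 22 tissue arrays, had correlations with the 6 genes of −0.39 (*Lhx6*) to 0.16 (*Dlx2*). For the 6 genes the 20 culture arrays gave −0.16 to 0.87 (median 0.40). These are descriptions over arrays that share litters and normalization. In primary hippocampus the KO litters 2037 and 2620 held the highest pair of KO values for 6 of 6 genes. WT litter NT was the highest WT litter there for 6 of 6 and WT litter 2643 the lowest for 6 of 6. For *Lhx6* the KO litters of primary cortex spanned 0.26. Litter 2620, the highest of them for *Gad2*, *Dlx1*, *Dlx2* and *Dlx5*, was the lowest for *Lhx6*. Among the WT litters of primary cortex, 2643 was the lowest for 5 of 6 genes, *Lhx6* included.

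*Dlx1* shows the size of this spread. In KO primary hippocampus it was 9.40 in litter 2037 and 9.55 in 2620, and between 7.70 and 8.62 in the other 4 litters. In WT primary hippocampus it was 7.47 in litter 2643, 9.05 in NT, and between 7.95 and 8.74 in the other 4. The spread between litters of one genotype was thus larger than the KO-to-WT difference. In KO primary cortex *Dlx1* was 9.29 in litter 2037, 8.61 in 2038, 9.21 in 2221, 9.73 in 2620 and 8.66 in 4236. In WT primary cortex it was 9.16 in litter 2236, 8.51 in 2643, 9.43 in 2644, 8.86 in 3569 and 8.93 in NT. Litter 2620 was again the highest KO litter and 2643 the lowest WT litter.

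The litter order of primary hippocampus recurred only in part elsewhere. Over the 10 litters the *Dlx1* deviations of the tissues, primary hippocampus against primary cortex, had r = 0.83 and rho = 0.82 (permutation p within genotype 0.0109 and 0.0126, adjusted p over 36 such relations 0.131), and r = 0.70 without litters 2620 and 2643. For r, *Dlx5* had smaller permutation p-values than *Dlx1* between culture and tissue. Its r was −0.82 in the hippocampus (p 0.0065) and 0.82 in the cortex (p 0.0053). None of the 36 relations passed after adjustment. Between hippocampal culture and primary hippocampus r was negative for each member, from −0.82 to −0.31 (*Gad2*). It turned positive for *Gad2* and *Dlx2* without litters 2038 and 2620, and for *Dlx6* without 2620 and 2644. Between cortical culture and primary cortex r ran from −0.50 (*Nkx2-1*) to 0.82 (*Dlx5*). In hippocampal culture the pattern differed, since KO litter 2038 was the highest KO litter for 6 of 6 genes and 2620 the lowest for 6 of 6.

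**Figure D4:**
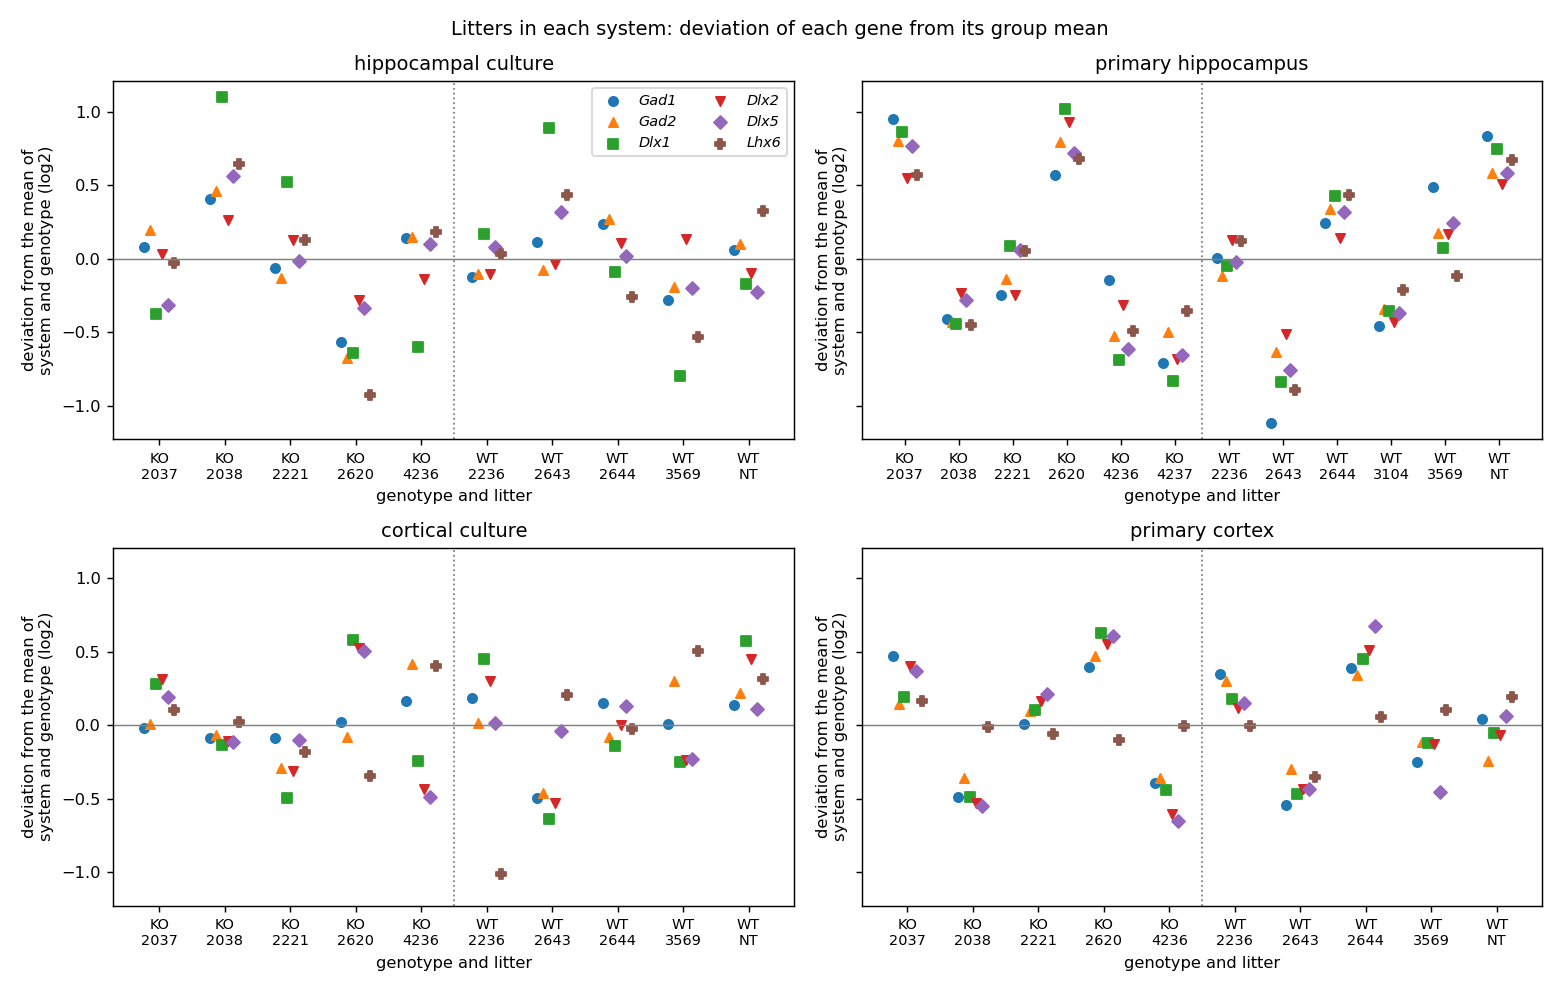
Deviation of each litter from its genotype mean (log2, y axis) in the 4 systems for the 6 interneuron genes, KO litters left of WT litters. In primary hippocampus the KO litters 2037 and 2620 and the WT litter NT are high for all 6 genes and WT litter 2643 is low, and in hippocampal culture KO litter 2038 is high and 2620 low.

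Some of the marker lists moved with this spread in tissue. Over the 22 tissue arrays the deviations of *Dlx1* had r = 0.93 with the mean of the 14 migration and postmitotic factors, 0.84 with the 16 subtype markers, 0.68 with the mature neuron genes, 0.64 with the striatal genes, −0.57 with the microglia genes and −0.73 with the hippocampal identity genes. The list of 14 factors holds *Dlx6os1*, the RNA antisense to *Dlx6*, and so is not independent of the *Dlx* genes. Weaker relations included r = −0.13 for astrocyte, −0.07 for cell division, 0.17 for oligodendrocyte lineage and 0.18 for endothelial genes. KO litter 2620 was 0.37 above its group in the striatal mean in primary hippocampus and 0.55 above in primary cortex, and 0.41 below its group in the hippocampal identity mean (deviation −0.41) in primary hippocampus. KO litter 2037 was 0.10 and 0.02 above in the striatal mean of the same tissues. The part of these lists in the litter differences was not tested. *Dlx6* was above background only in KO litter 2620, whose level was 5.43 in hippocampal tissue and 5.54 in cortical tissue.

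The gene most like each member over the 42 arrays was another member for *Gad1*, *Gad2*, *Dlx1*, *Dlx2* and *Dlx5*. It lay outside the members for *Dlx6*, *Sp8*, *Lhx6* and *Nkx2-1*. Among the 12631 genes above background, *Gad1* was closest to *Gad2* (r = 0.89), *Nrxn3* (0.83) and *Dlx5* (0.82), and *Gad2*, after *Gad1*, to *Gm14204* (0.82) and *Dlx1as* (0.79), after the mean of each group was removed. *Dlx1* was closest to *Dlx5* (0.85), *Dlx2* (0.81) and *Slc32a1* (0.78). *Dlx2* was closest to *Dlx5* (0.87), *Dlx1* (0.81) and *Dlx6os1*, the RNA antisense to *Dlx6* (0.80), and *Dlx5*, after *Dlx2* and *Dlx1*, to *AW551984* (0.83). *Lhx6* was closest to *Dlx1as*, the RNA antisense to *Dlx1* (0.81), *Rpp25* (0.79) and *Exoc6* (0.77). *Dlx6* was closest to *Isl1* (0.85), a factor of striatal neurons, *Dlx6os1* (0.74) and *Dlx2* (0.72), although it was itself at background on most arrays. *Sp8* had looser partners, *Ebf1* (0.66), *Klhl13* (0.66) and *Msl3* (0.62). *Nkx2-1*, below background on all arrays, was closest to *Dbnl* (0.72), *Cops8* (0.70) and *Idh3b* (0.69).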

How the data were processed

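Labelled RNA made from 100 ng of total RNA per sample was read on Affymetrix expression arrays of the mouse genome, and the values used here are the log2 signals that the authors deposited, which they normalized across arrays by RMA (background correction, quantile normalization and summary per probe set). This compresses differences near background. The members, the other gene lists and the tests were chosen with earlier results of these data known. Of 45101 probe sets, 64 controls were left out. 34945 had 1 gene, 932 several and 9160 none, and the probe set with the highest mean over the 42 arrays stood for a gene. Linear models were fitted with limma 3.58.1 (R 4.3.3) to the 8 group means of all 45037 probe sets, with 34 residual degrees of freedom. As in the study's methods, an unadjusted p under 0.05 was used for KO against WT, and a Benjamini-Hochberg adjusted p under 0.05 otherwise. Shares of genes were counted over 18193 genes. Two-sided exact permutation tests, correlations and figures used Python 3.11.15, NumPy 2.4.6, SciPy 1.17.1, pandas 2.3.3 and Matplotlib 3.10.9, and the fits were tested on simulated data.

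The mouse ID in the labels, read as the litter, was taken to pair arrays across systems. Same-litter deviations correlated over 0.1 for 10 of 10 litters between the tissues (median 0.40) and for 8 of 10 between the cultures (median 0.29). Between culture and tissue they did so for 1 of 10 litters in the hippocampus (median 0.00092) and 3 of 10 in the cortex (median 0.022). The deviations thus gave little sign of a litter pairing between culture and tissue. Alternatives were array weights, the litter as a block, other probe set rules, scalings and filters, a 2-fold threshold and leaving out litters. The fit averaged over systems and its alternatives, and the values raised to background, were added after the data had been seen. Named genes were all 9 members, up to 4 genes per list with the largest change above background, and the 3 most similar genes per member. The number of arrays limits the precision. The paper describes pairs of WT and KO replicates handled on the same day. The labels do not name these pairs, so the genotypes were compared unpaired. The labels do not say that litters were independent of culture day or array run, so p-values measure the spread between these pools.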

Additional observations from a re-analysis of the deposited data

Results flagged for a closer look

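Of 72 groups of 5 or 6 arrays, 3 held an array far from the others, where chance gives about 1 in 20. *Gad1* in WT cortical culture was 11.04 in litter 2643, with the nearest array at 11.54. *Dlx6* in KO primary hippocampus was 5.43 in litter 2620, with the nearest at 4.50. *Sp8* in WT primary cortex was 6.95 in litter 2644, with the nearest at 5.93. The culture-to-tissue difference differed between the hippocampus and the cortex by −1.11 for *Dlx1* and by −1.93 for *Sp8* on the log2 scale, by the limma test of that difference.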

How the results depend on the processing

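The calls of the 7 genes in the culture-to-tissue comparison kept their direction and their side of the threshold in both regions under each alternative run, including the litter as a replicate block, except that *Lhx6* in the hippocampus fell short of a 2-fold threshold (6 genes left). With that block *Dlx1* in primary hippocampus against primary cortex had −0.50 (limma adjusted p 0.121) and was no longer called, and no other culture or region call changed. With values raised to background *Sp8* in hippocampal against cortical culture was −0.10. For KO against WT in hippocampal culture, array weights or an adjusted p left 0 of 9 genes, and *Lhx6* was 0.45 with array weights and kept 0.60 in the exact test (p 0.0952). With a 2-fold threshold 0 genes remained between the tissues and 1 between the cultures. Single litters moved the count in hippocampal culture between 0 and 2, and the count for the difference between regions between 1 and 2. KO-to-WT values that turned were uncalled: *Lhx6* in cortical culture (−0.079, array weights), and with the probe set of smallest p *Gad1* in cortical culture (−0.35) and *Lhx6* in primary hippocampus (−0.087) and primary cortex (−0.031). Leaving out single litters, KO minus WT lay between −0.22 and 0.085 for *Dlx1* in cortical culture and −0.035 and 0.24 in primary cortex. For *Dlx2* it lay between −0.0024 and 0.13 in hippocampal culture, −0.069 and 0.18 in cortical culture, and −0.080 and 0.21 in primary cortex. *Dlx5* had −0.032 to 0.25 in primary hippocampus and −0.12 to 0.20 in primary cortex, and *Dlx6* −0.12 to 0.18 and −0.011 to 0.31. *Gad1* had −0.21 to 0.048 and *Gad2* −0.18 to 0.030 in primary cortex. *Lhx6* had −0.14 to 0.24 in cortical culture, −0.10 to 0.21 in primary hippocampus and −0.047 to 0.088 in primary cortex. *Nkx2-1* had −0.0025 to 0.10 in hippocampal culture and −0.023 to 0.048 in primary hippocampus, and *Sp8* −0.10 to 0.20 in primary hippocampus and −0.018 to 0.42 in primary cortex. The cause of these shifts was not tested. Signal near background limits *Dlx6*, *Nkx2-1* and, in culture, *Sp8*, *Dlx2* and *Dlx5*.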

Other observations

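RNAs annotated beside the *Dlx* genes also differed between the systems. *Dlx1as* was lower in culture than in tissue by 1.14 in the hippocampus (estimate −1.14) and by 1.38 in the cortex (estimate −1.38) on the log2 scale. *Dlx6os1*, also a member of the list of 14 factors, had estimates of −1.07 and −1.23. In primary hippocampus against primary cortex the estimates were −0.80 for *Dlx1as* and −1.0 for *Dlx6os1*. *Dlx6os2*, below background in the mean of each system, was 0.12 higher in culture in the hippocampus (limma adjusted p 0.0503) and 0.22 higher in the cortex (adjusted p 0.000999).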
